A study of Mus musculus with 4 samples.

Results

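The genes described here are 106 genes, measured by 121 probe sets, whose signal was higher in osteoclast cultures lacking NFATc1 than in wild-type cultures. They were chosen on that difference itself. A probe set was taken when it carried 1 gene symbol, had a mean signal of at least 200 in the deficient cultures, and had a lowest deficient signal at least 2 times the highest wild-type signal. Of 20380 probe sets with 1 symbol, 138 (0.677%) met these thresholds, and 260 (1.28%) met them in the other direction. Of the former, 17 probe sets of 12 genes were set aside by name, among them the decoy receptor Tnfrsf11b, the serpin Serpinb1a and the replication gene Mcm3. Because the comparison of genotypes chose the genes, their values in it are given as a description, with no test.

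The series holds 4 Affymetrix arrays. The wild-type group (NFATc1 fl/fl MxCre-) and the NFATc1-deficient group (NFATc1 fl/fl MxCre+) had 2 arrays each, and all mice were C57BL/6 and carried floxed Nfatc1 alleles. In the deficient mice the excision was induced with polyIC, and for the wild-type mice the sources used here do not say whether it was given. Mx-Cre is driven by an interferon-responsive promoter, so its action is not limited to osteoclast precursors. Each array carried RNA pooled from 3 mice (replicate 1) or 4 mice (replicate 2). The cells were sorted from bone marrow as CD11b- CD3e- B220- and positive for c-Kit and c-Fms, per the labels' protocols, and the design text calls them bone marrow macrophages. They were cultured for 3 days with M-CSF, a survival and growth factor of macrophages, and RANKL, the cytokine that drives osteoclast formation. Signals below are MAS5 values on a linear scale, given as replicate 1 and then replicate 2, and signals of different probe sets are not comparable as levels.

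NFATc1 is a transcription factor that RANKL switches on through calcium signalling and calcineurin, and it turns on the genes of fusion and bone resorption. Precursors divide in response to M-CSF and leave the cell cycle as they mature into osteoclasts. Dividing cells express replication and mitosis genes in waves that E2F transcription factors control from the promoters of these genes.

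The targeted gene checked the labels first. Nfatc1 gave 5433.6 and 6146.7 in the wild-type cultures and 3018.2 and 4097.9 in the deficient cultures at its brighter probe set. It fell by 0.71 on the log2 scale (adjusted p = 0.0102, limma over all probe sets), without NFATc1-deficient replicate 1 by 0.49 (adjusted p = 0.0881). Without a variance trend the adjusted p was 0.0600. Its signal in the deficient pools was thus well over the array medians. All 7 tested osteoclast markers fell, against 11.8% of all genes, and the lowest of their wild-type signals was 495.1, for the integrin subunit Itgb3. The probe set for the Y-linked gene Eif2s3y gave 14.4 and 6.5 on the replicate 1 arrays and 1146.7 and 1049.7 on the replicate 2 arrays, so the pools of the replicates also differed in sex. The array medians ran from 112 to 130.

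The widest gap between genotypes among the 106 genes was that of Slc6a12, with a lowest deficient signal 5.35 times the highest wild-type signal. The median of this ratio over the 121 probe sets was 2.27. It was 4 or more for 7 genes, 3 or more for 14 genes, and under 2.5 for 89 probe sets. At the threshold the last probe sets inside were those of Fhod3 (2.0057), Zfp932 (2.0098), Kpna3 (2.0147) and Col18a1 (2.0175). The first ones outside were those of Rfc1 (1.9997), Ywhaz (1.997), Dnajc9 (1.9969) and Nup43 (1.9966). Rfc1 had 278.1 and 299.5 against 602.6 and 598.9, Ywhaz 365.0 and 314.5 against 1048.8 and 728.9, Dnajc9 642.1 and 641.7 against 1421.6 and 1282.2, and Nup43 348.5 and 323.5 against 943.6 and 695.8. All 121 probe sets passed the filter on dim probe sets, and all 121 were called higher by limma, against 12.8% of 13578 probe sets tested. The threshold required such a difference, so nothing is read from that count.

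**Figure D1:**
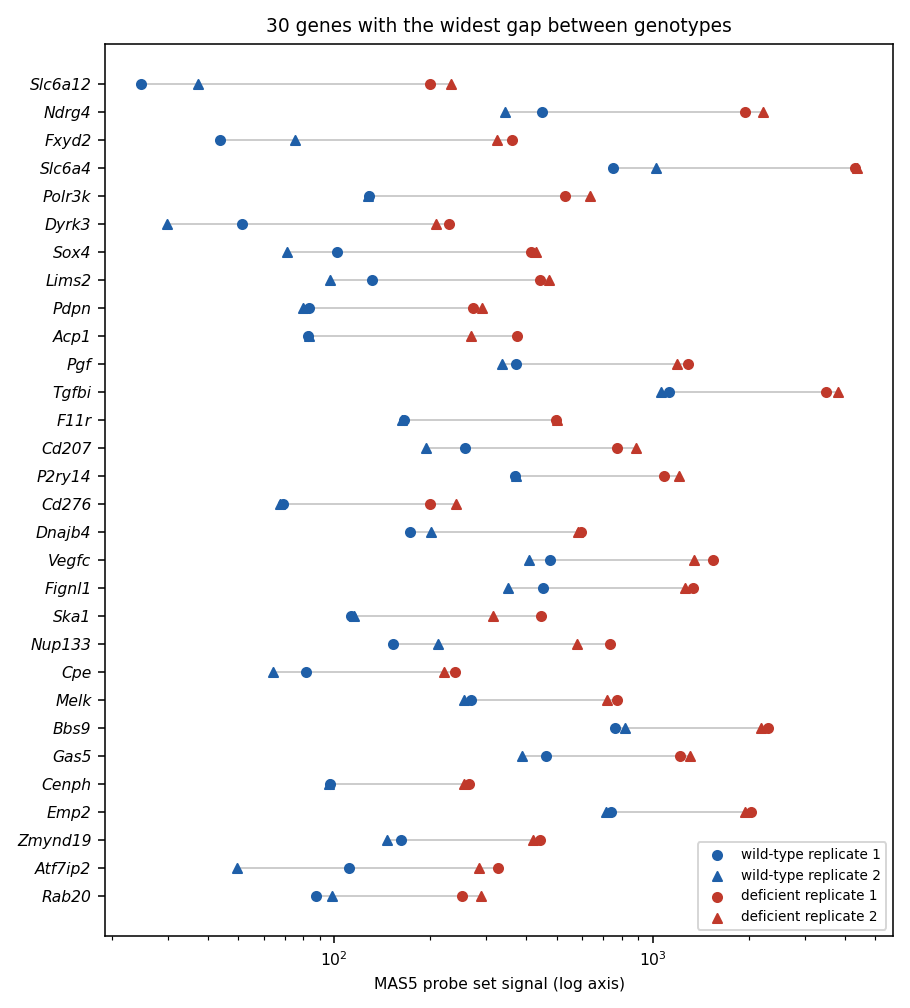
Signals of the 30 genes with the widest gap, on a log axis, at the probe set of each gene with the largest ratio of lowest deficient to highest wild-type signal. Circles are replicate 1 and triangles replicate 2, with wild-type in blue and deficient in red; the gap runs from 5.35 for Slc6a12 to 2.56 for Rab20.

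Transporters and membrane proteins made up 8 of the genes and held 3 of the 4 widest gaps. Slc6a12, the betaine and GABA transporter BGT1, gave 24.7 and 37.3 in the wild-type cultures and 199.6 and 231.6 in the deficient cultures. The wild-type signals lay near the 25th percentile of all signals (23.3), so the size of this ratio is uncertain. Slc6a4, the serotonin transporter, was far brighter and went from 750.7 and 1024.8 to 4327.0 and 4389.4, a log2 difference of 2.28 (SE 0.15). Its deficient replicates differed by less than its wild-type replicates did. Fxyd2, the gamma subunit that regulates the sodium-potassium ATPase, met the thresholds at 3 probe sets. The one with the widest gap went from 43.7 and 75.5 to 361.2 and 323.5, and the brightest from 183.8 and 148.6 to 528.9 and 436.9. A further Fxyd2 probe set stayed at or under 3.8 on every array.

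The other membrane genes had narrower gaps. Emp2, a tetraspan protein, went from 738.7 and 714.9 to 2036.0 and 1943.7 at its brightest probe set, a ratio of means of 2.74, and a dimmer probe set had 2.47. Tmem158 went from 289.6 and 429.9 to 1024.3 and 1012.2, and Tmem229b from 270.0 and 295.4 to 659.3 and 716.2. In Tmem158 the wild-type replicates were farther apart than the deficient ones. Rrad, a Ras-related GTPase that inhibits voltage-gated calcium channels, had 345.9 and 323.0 against 699.4 and 746.3. The armadillo repeat gene Armcx2 had 93.6 and 47.9 against 256.1 and 214.8, and its brightest probe set 207.0 and 109.0 against 238.5 and 293.8.

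The other genes of monoamine handling that could be measured did not rise with Slc6a4. Among 3 tested genes of monoamine synthesis, storage and breakdown, the vesicular transporter Slc18a1 fell, from 351.7 and 391.4 to 69.0 and 102.6 (adjusted p = 0.000818, limma), and none rose. Monoamine oxidase A (Maoa) had a log2 difference of 0.23 (adjusted p = 0.350), and Th, of catecholamine synthesis, had -0.42 (adjusted p = 0.473). The serotonin synthesis genes Tph1 and Ddc did not pass the filter. Serotonin transport is also known from mast cells, basophils and platelets. None of the 8 mast cell and basophil markers on the array passed the filter, and their summed signals were 153 and 154 in the wild-type cultures and 172 and 232 in the deficient cultures. Among them Mcpt8 was at most 27.2 and Hdc at most 8.1. The 5 platelet markers summed to 522 to 716 and 581 to 695. Of the other 13 genes of the Slc6a family, 4 were tested, none rose, and the creatine transporter Slc6a8 fell by 1.15 on the log2 scale (adjusted p = 0.000797).

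Secreted and matrix proteins and proteases made up 10 genes, among them a pair of VEGF family ligands. Pgf, placental growth factor, went from 371.8 and 336.1 to 1290.5 and 1190.9. Vegfc, the lymphangiogenic ligand, went from 474.2 and 409.2 to 1541.0 and 1348.5. In both genes the ratio of genotypes was nearly the same in each replicate, at 3.47 and 3.54 for Pgf and 3.25 and 3.30 for Vegfc. Their relative Vegfa, which was on another list, fell from 233.9 and 328.9 to 147.2 and 114.4 (adjusted p = 0.0159, limma). The adjusted p of Vegfa was 0.0556 without a filter, 0.0575 without NFATc1-deficient replicate 2 and 0.0569 without wild-type replicate 2. The 3 ligands thus did not all differ in the same direction.

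Tgfbi, a secreted matrix protein that TGF-beta induces, met the thresholds at all 4 of its probe sets. Its brightest probe set went from 3011.5 and 2880.6 to 7422.5 and 7369.0, with a ratio of means of 2.51, and the other probe sets had 2.45, 2.83 and 3.34. Each of the 4 probe sets therefore gave a similar picture. Thbs1, the matricellular glycoprotein thrombospondin 1, went from 95.1 and 106.8 to 245.6 and 237.1, with 107.6 and 96.0 against 144.5 and 159.6 at its other probe set. The basement membrane chain Col4a1 went from 82.9 and 78.2 to 179.6 and 268.8, and its other probe set overlapped between genotypes, with 122.6 and 67.8 against 111.2 and 124.2. Col18a1, the precursor of endostatin, had 80.0 and 91.2 against 184.0 and 249.6, and its other probe set had 98.1 and 67.4 against 94.3 and 124.7. For both collagens the genotypes were apart at 1 probe set and overlapped at the other. Of the 9 tested other genes whose symbols start with Col, Col4a2 (1.10, adjusted p = 0.0126) and Col4a5 (1.29, adjusted p = 0.00940) rose on the log2 scale. The adjusted p of Col4a2 was 0.0602 without NFATc1-deficient replicate 1 and 0.0594 without NFATc1-deficient replicate 2.

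The remaining secreted or processing proteins had wild-type signals of at most 194.9 at the probe set that met the thresholds. Cpe, carboxypeptidase E, went from 81.4 and 64.2 to 239.8 and 221.2, while its other probe set overlapped, with 75.1 and 39.8 against 56.4 and 79.4. The serine protease Htra1 went from 99.8 and 76.4 to 314.3 and 230.1, and its brighter probe set from 267.4 and 146.8 to 411.7 and 366.3. Bace1, the beta-secretase, had 194.9 and 140.9 against 475.6 and 400.3 at 1 probe set. Its 3 other probe sets were at most 161.0, and none had both deficient signals above both wild-type signals. At 1 of them the deficient signals were lower, with 117.4 and 76.8 against 70.8 and 69.1. Il1f9, the cytokine interleukin 36 gamma, had 122.3 and 127.0 against 259.5 and 270.7, with replicates that nearly coincided.

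Surface receptors and adhesion molecules made up 10 genes. Calcrl, the receptor of adrenomedullin and CGRP and a relative of the calcitonin receptor, went from 1341.6 and 1240.4 to 3791.8 and 3186.6. A dimmer Calcrl probe set went from 286.6 and 191.6 to 472.3 and 659.8. The calcitonin receptor gene itself, Calcr, fell from 761.2 and 717.5 to 17.0 and 41.6 (adjusted p = 9.23e-05, limma), so these related receptor genes stood in opposite directions. P2ry14, a receptor for UDP-glucose, went from 368.3 and 371.9 to 1083.5 and 1205.6. Adgrg3, an adhesion G protein-coupled receptor of leukocytes, had 112.9 and 91.4 against 289.3 and 267.8. Fgfr1, a fibroblast growth factor receptor, had 117.7 and 115.6 against 244.9 and 334.3, and 129.5 and 148.6 against 286.6 and 371.4 at a second probe set that fell just short of the threshold.

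Several of these surface proteins are best known from other cells. Cd207, langerin, the lectin of Langerhans cells, went from 257.5 and 194.6 to 773.5 and 885.4. Pdpn, podoplanin, the ligand of CLEC-2, went from 83.4 and 79.8 to 272.6 and 291.2. F11r, the junctional adhesion molecule JAM-A, went from 165.0 and 163.4 to 498.3 and 500.7, with replicates within a few units of each other. Its other probe set was at most 69.6 and did not separate the genotypes. Cd276, the B7 family protein B7-H3, had 69.0 and 67.6 against 200.3 and 241.0. Ifitm1, an interferon-induced membrane protein, had 1584.8 and 1194.8 against 3856.3 and 3545.3. The surface antigen Cd24a went from 539.7 and 535.8 to 1380.3 and 1126.0, with a second probe set at a ratio of means of 2.67 and another, from 423.5 and 360.4 to 650.1 and 725.9, outside the thresholds.

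Markers of other marrow cells were set beside these genes. Of 7 dendritic cell markers on the array 3 were tested, and H2-Aa rose by 0.79 on the log2 scale (adjusted p = 0.00278), while Flt3, Zbtb46, Xcr1 and Ccr7 did not pass the filter and were at most 111.0. The dendritic list summed to 2220 and 1780 in the wild-type cultures and 3090 and 2940 in the deficient cultures. H2-Aa made up most of these sums, with 1544.5 and 1286.9 against 2566.7 and 2334.4. The other tested dendritic markers, Itgax (0.07, adjusted p = 0.818) and Cd209a (adjusted p = 0.998), did not pass. All 8 granulocyte markers were tested and 3 rose, with sums of 5480 and 6060 against 15600 and 7470. S100a8 rose by 1.41 (adjusted p = 0.0117), with an adjusted p of 0.0525 without a filter and 0.0634 without a variance trend. The others were S100a9, with an adjusted p of 0.182 once NFATc1-deficient replicate 1 was left out, and Ngp, with 0.0903. The granulocyte sum was highest in deficient replicate 1. In bulk cultures more cells of a type and more RNA per cell cannot be told apart, and the part of other cells in these differences was not tested. The B cell, T and NK cell and erythroid lists summed to at most 260 on every array.

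Cytoplasmic signalling proteins and enzymes made up 16 genes. Ndrg4, of the NDRG family and known best from brain and heart, went from 450.3 and 343.7 to 1941.1 and 2215.1, a log2 difference of 2.33 (SE 0.15), and its second probe set from 149.1 and 181.4 to 619.8 and 851.6. The 2 tested other Ndrg genes did not pass, with a median of -0.22. Dyrk3, a kinase that dissolves membraneless condensates, went from 51.2 and 29.8 to 229.0 and 208.4, and neither of 2 other Dyrk genes passed (median -0.39). For both genes the family members beside them did not pass in either direction. Lims2, the focal adhesion adaptor PINCH2, went from 131.4 and 97.2 to 442.3 and 471.8. Rab20, an endosomal Rab GTPase, went from 87.7 and 98.4 to 252.0 and 289.4.

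Enzymes of lipid metabolism and protein turnover were among the narrower gaps. Pla2g4a, the cytosolic phospholipase A2 that releases arachidonic acid, went from 425.6 and 443.8 to 1019.0 and 917.4. The lysophospholipid acyltransferase Mboat1 had 254.1 and 274.9 against 599.9 and 582.2. The ubiquitin ligases Rnf183 (99.1 and 112.4 against 294.5 and 267.2) and Trim59 (250.8 and 217.7 against 571.4 and 523.7) were also in this group. The replicates of these 4 genes lay close together within each genotype. Errfi1, a feedback inhibitor of the EGF receptor, met the thresholds at both of its probe sets, the brighter with 125.2 and 128.5 against 358.1 and 264.0. Vrk2, a vaccinia-related kinase, did so too, with 467.0 and 435.0 against 1140.6 and 1051.1 at the brighter one. Bid, the BH3-only death protein, had 113.7 and 107.6 against 272.8 and 250.4, and 522.9 and 359.3 against 913.3 and 824.3 at its brighter probe set. The formin Fhod3 had 121.9 and 68.5 against 244.5 and 276.3, the last gene inside the threshold, and Dennd11 had 263.3 and 247.0 against 590.6 and 558.0.

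Genes of MAP kinase feedback and of the immediate early response, listed beside Errfi1, moved in both directions. Of 12 tested genes of that list 3 rose and 3 fell, against 12.8% and 11.8% of all 7801 genes. The phosphatase Dusp1 rose by 1.06 on the log2 scale (adjusted p = 0.00265). Spry2 (214.6 and 169.9 against 395.0 and 367.1) and Ier3 (166.8 and 97.0 against 237.5 and 243.9) also rose. Spry1 fell by 2.47 (adjusted p = 0.000142) and Dusp6 by 1.59 (adjusted p = 0.000363). The immediate early gene Egr1 fell by 1.22 (adjusted p = 0.00913). Dusp1 and Dusp6, both MAP kinase phosphatases, thus moved in opposite directions, as did Spry1 and Spry2.

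Transcription and chromatin factors made up 9 genes. Sox4, a factor of progenitor cells, went from 102.2 and 70.9 to 414.0 and 428.3 at its brightest probe set. Of its 5 other probe sets all were dimmer, at most 109.0, and 1 of them had lower mean signal in the deficient cultures. None of the 3 tested other Sox genes passed. Mycl, the L-Myc factor, met the thresholds at all 3 of its probe sets, and the brightest went from 423.1 and 329.6 to 870.9 and 881.0. Ahr, the ligand-activated aryl hydrocarbon receptor, went from 92.1 and 71.6 to 343.1 and 223.1, while its other probe set stayed at or under 52.8. Ahr also had one of the wider spreads between deficient replicates.

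The other factors had ratios of means from 2.24 to 3.82. Atf7ip2, a cofactor of heterochromatin formation, had 111.0 and 49.5 against 327.6 and 284.8, and Zmynd19 had 161.7 and 146.6 against 440.8 and 420.9. The zinc finger gene Zfp932 had 173.8 and 133.5 against 349.3 and 366.0. In Atf7ip2 the wild-type replicates differed more than the deficient ones. Brd8, a bromodomain subunit of an acetyltransferase complex, had 232.5 and 216.2 against 512.0 and 492.6, and its brightest probe set 735.9 and 555.5 against 1119.3 and 979.7. Gtf2h4, a TFIIH subunit, had 284.4 and 244.9 against 639.1 and 581.2, and 532.3 and 387.8 against 1098.7 and 892.1 at its brightest.

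DNA replication and repair was the largest group, with 20 genes and 22 probe sets, and its gaps were narrow and alike, from 2.02 to 2.79. Fignl1, an ATPase of recombination repair, had the widest, from 453.0 and 351.7 to 1334.4 and 1262.9. Tk1, thymidine kinase, went from 491.2 and 439.8 to 1370.2 and 1208.9. At the replication fork, the polymerase subunits Pold1 (235.5 and 256.3 against 803.4 and 598.7) and Pole2 (510.7 and 470.8 against 1267.8 and 1170.0) were in the group. The other Pold1 probe set had 475.4 and 374.7 against 663.7 and 657.3, a ratio of means of 1.55. Polymerase, primase, clamp loader and fork protection were thus all represented. The primase Prim1 went from 243.4 and 262.0 to 823.0 and 559.0, and from 724.0 and 502.4 to 1499.5 and 1201.0 at its brighter probe set. The clamp loader subunit Rfc3 met the thresholds at both probe sets, the brighter with 273.9 and 347.2 against 795.4 and 726.3. Rfc4 had 240.0 and 207.6 against 728.5 and 558.5, and 634.0 and 515.0 against 1280.2 and 1123.1 at its brighter probe set. Of the 3 other Rfc genes tested 2 rose, against 12.8% of all 7801 genes. These were Rfc1, by 1.00 on the log2 scale (adjusted p = 0.00181), and Rfc5, by 0.87 (adjusted p = 0.00315). Rfc2 was lower in the deficient cultures, with 1242.7 and 1173.9 against 935.5 and 985.3, and did not pass (-0.32, adjusted p = 0.0676).

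The fork and chromatin factors behaved alike. Tipin, which protects the fork, went from 1129.2 and 1050.5 to 2713.4 and 2327.3. Dna2, which processes Okazaki fragments, went from 731.3 and 607.3 to 1603.9 and 1571.2, and Rpa2, of the single-strand binding complex, from 326.1 and 308.9 to 796.3 and 679.6. Lrr1, which helps take the replicative helicase off chromatin, had 367.3 and 311.6 against 927.3 and 844.4. The remodeller Hells (558.5 and 415.2 against 1290.8 and 1289.5) and its activator Cdca7 (243.8 and 215.7 against 620.6 and 559.2) were both in the group, as was Uhrf1, the reader of hemimethylated DNA (576.0 and 495.2 against 1175.4 and 1162.3). All 3 genes are known for roles in maintaining DNA methylation. A dimmer Uhrf1 probe set had 219.0 and 251.7 against 286.5 and 463.5. The histone chaperone Nap1l1 had 490.0 and 421.6 against 1219.3 and 1031.1 at 1 of 7 probe sets, and 3988.8 and 3572.8 against 6151.8 and 5204.7 at its brightest.

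Repair genes closed the group. Msh6, of mismatch repair, went from 268.2 and 202.4 to 585.5 and 569.1. The Bloom helicase Blm went from 153.0 and 136.3 to 350.3 and 347.6. The recombination factor Psmc3ip had 182.6 and 163.7 against 491.6 and 369.2. The checkpoint kinase Chek1 had 179.4 and 158.9 against 450.0 and 364.4, and its brighter probe set, from 349.6 and 314.9 to 762.8 and 687.5, fell just short of the threshold. In every one of these 4 genes deficient replicate 1 was above deficient replicate 2.

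The promoters of these genes were read from RefSeq (build GRCm38.p6), where 86 of the 106 genes had an entry. The window ran from 250 bases before to 50 after the first listed start, and motifs were searched on both strands. The E2F site TTCCCGC was found in 15 of 30 promoters of the replication and cell cycle genes (exact 95% interval of the share 31.3 to 68.7%) and in 3 of 56 promoters of the remaining genes of the set (5.36%, 1.12 to 14.9%). It was in 8.58% of 6349 promoters of the other genes tested and in 4.66% of all 27025 promoters. In the 200 bases nearest the start the shares were 46.7%, 3.57% and 6.41%. In the first window the site was in 18 of all 86 promoters of the set (20.9%, 12.9 to 31.0%). The intervals cover counting error only, and this motif was chosen after the genes were known. Replication and cell cycle genes outside the set were not compared. The shares by group therefore describe a difference between roles, and nothing on the rise without NFATc1 is read from them. The median GC content was 60.7% for the replication and cell cycle promoters and 61.0% for the other genes tested. A match is a description of the letters and not evidence of binding.

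The 150 bases before the start are shown for 5 of the replication and cell cycle genes, those whose E2F match before the start lies nearest to it (matches after the start are not shown), 5′ to 3′ along the gene, with the matches in capitals, because the E2F site is the motif whose share differed most between the groups of genes. The positions are chr10:128015065-128015214 (plus strand) for Prim1, chr4:132768210-132768359 (plus strand) for Rpa2, chr17:56303187-56303336 (plus strand) for Uhrf1, chr19:38930840-38930989 (plus strand) for Hells and chr2:72476069-72476218 (plus strand) for Cdca7. The first base of the match lay 15 bases before the start in Prim1, 37 in Rpa2, 48 in Uhrf1, 61 in Hells and 71 in Cdca7.
Prim1: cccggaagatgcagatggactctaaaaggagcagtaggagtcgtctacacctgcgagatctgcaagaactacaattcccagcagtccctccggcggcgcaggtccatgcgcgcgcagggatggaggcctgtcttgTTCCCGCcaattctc
Rpa2: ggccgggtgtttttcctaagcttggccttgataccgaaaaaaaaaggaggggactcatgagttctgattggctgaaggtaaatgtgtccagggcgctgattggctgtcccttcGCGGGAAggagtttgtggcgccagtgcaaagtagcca
Uhrf1: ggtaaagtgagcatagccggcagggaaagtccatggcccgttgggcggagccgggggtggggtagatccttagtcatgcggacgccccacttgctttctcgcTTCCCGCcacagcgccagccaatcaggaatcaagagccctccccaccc
Hells: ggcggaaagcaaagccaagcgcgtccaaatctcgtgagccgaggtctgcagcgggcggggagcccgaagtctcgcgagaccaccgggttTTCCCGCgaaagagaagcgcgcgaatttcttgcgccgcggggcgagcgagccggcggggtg
Cdca7: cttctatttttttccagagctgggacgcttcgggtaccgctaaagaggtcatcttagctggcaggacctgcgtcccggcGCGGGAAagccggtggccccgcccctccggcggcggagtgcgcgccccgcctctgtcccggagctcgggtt

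The other motifs were less uneven. The NFAT core GGAAA, which can share bases with an E2F site, was in 65.1% of the 86 promoters (exact 95% interval 54.1 to 75.1%) and in 59.6% of those of the other genes tested. The AP-1 site TGANTCA was in 6.98% against 5.06%, the CCAAT box (CCAAT) in 41.9% against 38.7%, the GC box GGGCGG in 61.6% against 66.5%, and the E-box CACGTG in 8.14% against 10.7%. The TATA box TATAAA was in 6.98% against 6.87%, the cAMP response element TGACGTCA in 1.16% against 3.47%, and the CHR element TTTGAA in 10.5% against 11.7%. For each of these 8 motifs the share in the other genes tested lay inside the exact interval of the set. The ETS core CCGGAAG was in 17.4% of the 86 promoters (10.1 to 27.1%) and in 20.5% of those of the other genes tested, also inside the interval. By group it was in 33.3% (17.3 to 52.8%) of the replication and cell cycle promoters and 8.93% (2.96 to 19.6%) of the remaining ones. Slc6a12, the gene with the widest gap, is shown as an example from outside the cell cycle, with 1 AP-1 match 58 bases before the start and 2 NFAT cores in capitals, at chr6:121342424-121342573 (plus strand).
Slc6a12: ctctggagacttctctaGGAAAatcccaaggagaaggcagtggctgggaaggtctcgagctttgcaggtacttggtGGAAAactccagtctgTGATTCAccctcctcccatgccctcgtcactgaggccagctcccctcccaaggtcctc

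**Figure D2:**
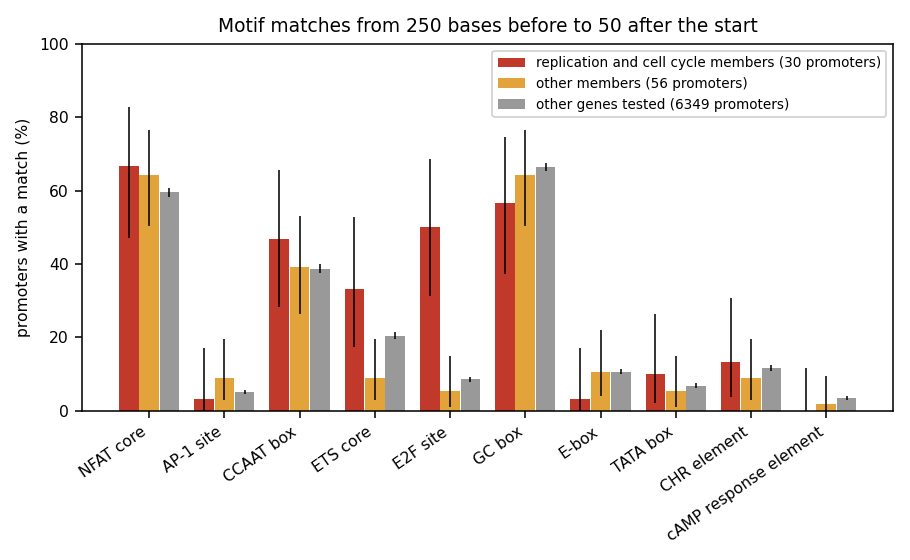
Share of promoters with at least 1 match of each motif (percent, exact 95% binomial intervals) in replication and cell cycle genes of the set, the remaining genes of the set, and the other genes tested. The E2F site was in 15 of 30 promoters of replication and cell cycle genes, 5.36% of the remaining ones and 8.58% of those of other genes tested.

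Cell cycle and mitosis genes made up 15 of the set. Entry into S phase was represented by Ccne2, cyclin E2, from 355.0 and 286.9 to 1040.0 and 849.5, and by Skp2, the F-box protein that targets p27, from 121.0 and 133.8 to 362.0 and 278.8. The brightest Skp2 probe set went from 479.7 and 380.5 to 855.8 and 835.5. The kinase Melk went from 269.0 and 254.7 to 772.8 and 717.7, and Cdca4 from 786.9 and 761.6 to 1647.5 and 1633.7. Kinetochore and spindle genes were also present. Ska1 had 112.6 and 115.3 against 446.9 and 315.9, Cenph had 96.9 and 95.9 against 265.0 and 255.2, and the depolymerising kinesin Kif2c had 342.3 and 313.1 against 771.5 and 691.9. The spindle checkpoint kinase Ttk went from 281.1 and 164.7 to 669.5 and 577.0, and Trip13, which remodels checkpoint complexes, from 190.1 and 195.3 to 422.8 and 428.1. Ttk had a wide wild-type spread, and Trip13 almost none.

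The remaining genes of division were Cdca5, sororin, which protects sister chromatid cohesion (632.5 and 506.9 against 1785.1 and 1424.0), Tacc3 of the spindle (245.2 and 256.2 against 689.5 and 522.0) and Shcbp1 of the midbody (638.0 and 585.9 against 1592.9 and 1331.6). Cip2a, an inhibitor of the phosphatase PP2A, had 307.5 and 283.7 against 892.9 and 732.1. Each of these 4 was higher in deficient replicate 1 than in deficient replicate 2. Stmn1, stathmin, had 144.0 and 127.3 against 400.8 and 291.6, whereas its brightest probe set went from 3739.2 and 3241.1 to 5948.9 and 5106.9, a ratio of means of 1.58. Jpt1 went from 1620.1 and 1259.5 to 5431.3 and 3639.2 at 1 of 3 probe sets, and its others reached 2494.3. Of the Cdca genes outside the set, Cdca3 rose by 0.93 on the log2 scale (adjusted p = 0.00149) and Cdca7l by 0.61 (adjusted p = 0.0365). The adjusted p of Cdca7l was 0.164 without NFATc1-deficient replicate 1, 0.0884 without NFATc1-deficient replicate 2 and 0.139 without wild-type replicate 2.

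The replication and cell cycle genes differed between the deficient replicates in 1 direction. In the deficient cultures replicate 1 was above replicate 2 for 22 of 22 replication probe sets and 14 of 15 cell cycle probe sets, against 43.6% of all probe sets tested. For the other 84 probe sets of the set the count was 46 (54.8%) as deposited, 52 (61.9%) with quantile normalization and 67 (79.8%) with median scaling. With quantile normalization the replication and cell cycle counts together were 35 of 37 (94.6%) against 6787 of 13578, and with median scaling 37 of 37 against 64.6%. In the wild-type cultures the order depended on the scaling, with replicate 1 above replicate 2 for 29 of 37 probe sets (78.4%, against 56.8% of all tested) as deposited, 23 (62.2%, against 48.5%) with quantile normalization and 11 (29.7%, against 28.8%) with median scaling. The median log2 difference of replicate 2 from replicate 1 in the deficient cultures was -0.21 for the replication and cell cycle probe sets, against 0.04 for all tested, and with median scaling -0.35 against -0.09. Deficient replicate 1 was also the array with the highest granulocyte sum, and the replicates differed in sex and in the number of mice pooled, whose part in this order was not tested. A limma fit with genotype and replicate number called 0 of the 121 probe sets for replicate (lowest adjusted p = 0.166), with 5 (4.13%) at an unadjusted p under 0.05, all lower in replicate 2, beside 960 (7.07%) of all 13578, of which 405 were higher and 555 lower. Over all probe sets 0.0589% were called higher and 0.103% lower in replicate 2. The thresholds favoured probe sets with a small spread within a genotype, so no lack of replicate differences is read from these calls. The probe sets share cells and arrays, so their count is a description.

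**Figure D3:**
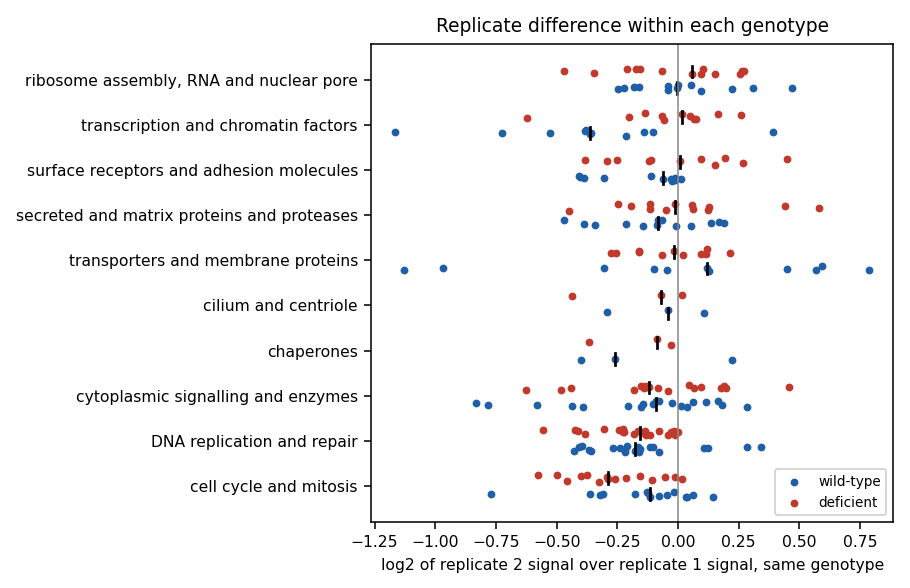
Log2 of replicate 2 over replicate 1 signal within each genotype, for every probe set of the set, by role, with wild-type in blue, deficient in red and black bars at the medians. The red points of the replication and cell cycle rows lie left of 0 for 36 of 37 probe sets.

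Genes of ribosome assembly, RNA and nuclear transport made up 12 of the set. Gas5, Snhg1 and Snhg5 are non-coding host genes of small nucleolar RNAs, which guide the modification of ribosomal RNA. Gas5 met the thresholds at 2 of 4 probe sets, the brighter of these with 462.5 and 389.6 against 1218.8 and 1308.5, and its brightest had 1640.2 and 1838.4 against 2842.7 and 2835.6. Snhg5 went from 465.4 and 410.7 to 1118.1 and 1068.5. Snhg1 had 218.2 and 233.2 against 492.1 and 525.6, with 1740.1 and 1609.8 against 3281.5 and 2770.9 at its brightest. All 3 tested other Snhg genes rose, against 12.8% of 7801 genes: Snhg6 by 1.20 on the log2 scale (adjusted p = 0.00181), Snhg16 by 1.00 (adjusted p = 0.0115) and Snhg8 by 0.48 (adjusted p = 0.0243). Leaving out NFATc1-deficient replicate 2 gave Snhg16 an adjusted p of 0.0863. That of Snhg8 was 0.0846 without NFATc1-deficient replicate 1 and 0.123 without wild-type replicate 2.

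Ribosome assembly and nuclear pore genes were in the same group. Ncl, the nucleolar protein nucleolin, had 331.4 and 321.7 against 811.1 and 719.4 at a dim probe set, while its brightest went from 5968.3 and 6460.2 to 8166.4 and 9152.1. Rpf2, an assembly factor of the large subunit, went from 424.5 and 440.8 to 1241.4 and 895.5, and Tsr2, a chaperone of a small subunit protein, from 334.0 and 286.6 to 785.2 and 677.9. The lariat debranching enzyme Dbr1 had 221.7 and 198.4 against 539.1 and 483.5. The pore scaffold genes Nup85 (272.9 and 318.7 against 786.5 and 940.0), Nup133 (152.7 and 211.2 against 735.0 and 577.5) and Nup155 (362.5 and 352.0 against 827.6 and 918.9) were all included. Their other probe sets had smaller ratios, with 499.1 and 461.3 against 780.8 and 716.7 for Nup85. For Nup155 the other probe set had 262.2 and 279.5 against 327.1 and 368.6, and Nup133 is given below. Of 13 other Nup genes, all tested, 5 rose and none fell, with a median of 0.44 against 0.03 over all genes. The importin Kpna3 had 395.7 and 394.7 against 797.2 and 830.4, and 983.0 and 939.9 against 1790.4 and 1888.7 at its brightest probe set.

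Polr3k, a subunit of RNA polymerase III, had one of the widest gaps, from 128.1 and 128.0 to 530.1 and 635.5, at 1 of its 5 probe sets. Its brightest went from 998.7 and 1017.9 to 1687.4 and 1331.4. The remaining 3 had 397.6 and 400.7 against 501.6 and 419.0, 301.4 and 316.4 against 437.9 and 442.5, and at most 28.0. No other Polr3k probe set thus had a ratio as large as the first. Of 23 other Polr genes 6 rose and 1 fell, against 12.8% and 11.8% of all genes. Among the 6, Polr1e had an adjusted p of 0.130 without NFATc1-deficient replicate 2, and Polr3a had 0.141 without NFATc1-deficient replicate 1.

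The chaperone group and the cilium and centriole group were small, with 3 genes each. Dnajb4, a heat-inducible co-chaperone, went from 172.3 and 200.9 to 594.6 and 583.0, and Hsph1, the heat shock protein HSP105, from 370.9 and 309.8 to 874.7 and 823.8. Placed with these chaperones was Serf1, which promotes amyloid aggregation. It went from 116.0 and 88.0 to 363.2 and 282.0 at 1 probe set, and at another it was lower in the deficient cultures (226.6 and 186.2 against 179.6 and 115.0). At its remaining probe sets it was higher, with 45.5 and 135.7 against 259.8 and 206.7 and with 61.9 and 99.9 against 127.7 and 130.5. Bbs9 is a subunit of the BBSome, a complex that carries proteins to and from the cilium, and it went from 760.6 and 820.1 to 2296.6 and 2185.8. Lztfl1, which regulates the BBSome, went from 122.2 and 118.6 to 265.3 and 268.0, and from 680.4 and 611.3 to 1485.6 and 1184.9 at its brighter probe set. Mdm1, a centriolar protein, had 147.1 and 120.0 against 457.6 and 338.3.

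Probe sets of 1 gene did not always give the same size. Of the 106 genes 42 had 1 probe set and 64 several, and in 6 of these all probe sets met the thresholds. The 58 other genes had 117 further probe sets, of which 97 passed the filter. Both deficient signals were above both wild-type signals for 83 of the 97, against 34.4% of all probe sets tested, and their median ratio of means was 1.59. The remaining 14 belonged to Bace1 (3), Scp2 (2), Brd8, Col4a1, Col18a1, Cpe, Serf1, Skp2, Sox4, Tmem158 and Xbp1. These belong to the same comparison that chose the genes, so they are no separate support. In 26 genes the probe set brightest in the deficient cultures was not the one that met the thresholds. Its median ratio of means was 1.84, against 2.49 at the probe set that did.

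In several genes, Polr3k above among them, the brightest probe set had a much smaller ratio than a dimmer one that met the thresholds. Xbp1, the transcription factor of the unfolded protein response, had 128.2 and 98.3 against 270.8 and 303.4 at 1 probe set, but 4576.1 and 3986.1 against 4604.7 and 4866.1 at the one brightest in the deficient cultures, a ratio of means of 1.11. Its other bright probe set had 4736.1 and 4545.2 against 4627.2 and 4780.9, which overlap. Scp2, a sterol carrier protein, had 134.6 and 121.9 against 317.1 and 279.4, but 2567.8 and 2434.3 against 3389.2 and 2759.1 at the one brightest in the deficient cultures. Another bright Scp2 probe set overlapped, with 3064.0 and 3337.3 against 3069.8 and 2981.3. The adaptor Ywhaq, 14-3-3 theta, had 350.7 and 315.3 against 1333.9 and 863.8, but 3795.9 and 3680.5 against 5105.5 and 4425.0. Acp1, a protein tyrosine phosphatase, had 82.7 and 83.3 against 375.0 and 268.5, but 1396.5 and 1603.2 against 2192.0 and 2030.9. In these 4 genes the membership rests on 1 dimmer probe set. Nup133 was similar, with a ratio of means of 3.61 at 1 probe set and 1.37 at its brightest. Where on the transcript each probe set lies, and whether its probes also match other transcripts, was not analysed here.

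**Figure D4:**
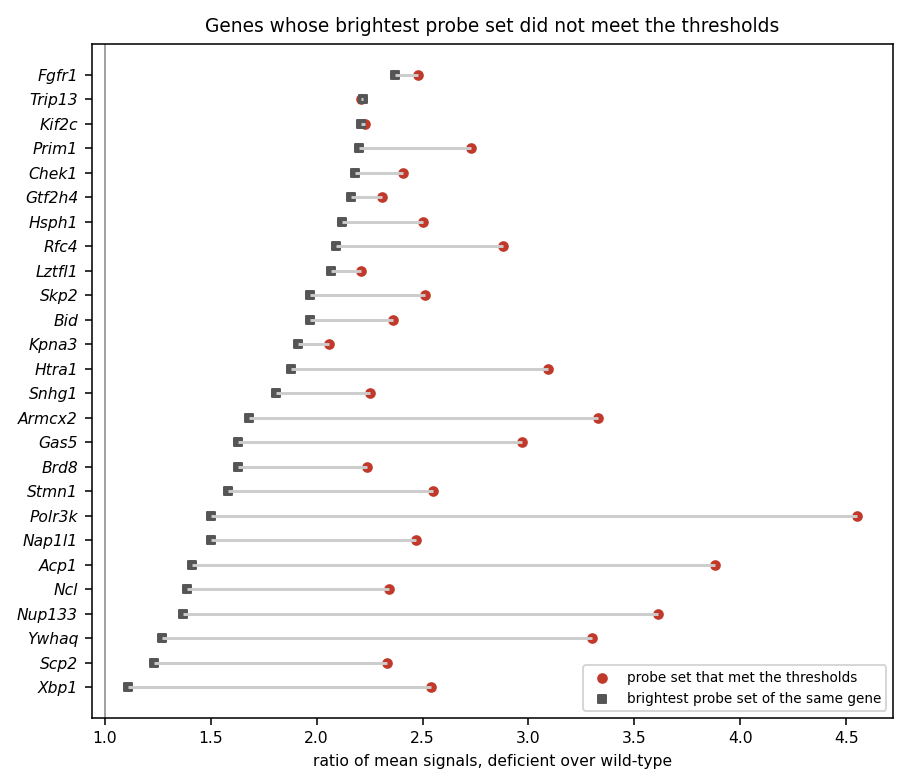
Ratio of mean signals, deficient over wild-type, for the 26 genes whose brightest probe set (grey squares) was not the probe set that met the thresholds (red circles). The squares run from 1.11 for Xbp1 to 2.37 for Fgfr1.

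Genes of the unfolded protein and integrated stress responses were listed beside Xbp1 and the chaperones. Of 15 tested genes 1 rose and 5 fell, with a median log2 difference of -0.35. Over all 7801 genes tested 12.8% rose and 11.8% fell. Psat1, of serine synthesis, rose by 0.78 (adjusted p = 0.00183). Asns, asparagine synthetase, fell by 0.60 (adjusted p = 0.00667) and Chac1 by 0.66 (adjusted p = 0.0318), and Vegfa, given above, fell too. Of 9 amino acid transporters 3 rose and 1 fell: Slc7a11, the cystine transporter, by 1.03 (adjusted p = 0.0117), Slc7a5 by 0.65 (adjusted p = 0.0155) and Slc38a2 by 0.52 (adjusted p = 0.0124) rose, and the glutamine transporter Slc1a5 fell by 0.89 (adjusted p = 0.00131). Of 10 p53 targets the cell cycle inhibitor Cdkn1a rose by 0.69 (adjusted p = 0.0258) and Trp53inp1 fell by 0.83 (adjusted p = 0.0482). These p53 counts are near the shares over all genes, so nothing is read from them. Leaving out NFATc1-deficient replicate 1 gave adjusted p-values of 0.102 for Chac1, 0.0710 for Slc7a5, 0.0838 for Slc38a2, 0.121 for Cdkn1a and 0.167 for Trp53inp1. Without NFATc1-deficient replicate 2 it was 0.0912 for Chac1 and 0.0754 for Slc7a11. Without wild-type replicate 2 it was 0.135 for Chac1, 0.0534 for Slc7a5 and 0.0819 for Cdkn1a.

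Cytokine receptors and G protein regulators were the last lists, set beside 12.8% risen and 11.8% fallen over all genes. Of 14 cytokine receptors Il7r rose by 1.15 (adjusted p = 0.0104), and Csf2ra (-0.75, adjusted p = 0.00278) and Il13ra1 (-0.82, adjusted p = 0.0369) fell. Of 11 G protein regulators Rgs10 fell by 1.02 (adjusted p = 0.000550), and none rose. The counts of both lists are near the shares over all genes, so nothing is read from them. Among 8 macrophage markers Cd14 rose by 0.54 (adjusted p = 0.0404) and Cd68 (-0.68, adjusted p = 0.00862) and Csf1r (-0.41, adjusted p = 0.0457) fell. Leaving out NFATc1-deficient replicate 1 gave adjusted p-values of 0.228 for Cd14, 0.101 for Cd68, 0.25 for Csf1r and 0.0872 for Il13ra1. It was 0.273 for Csf1r and 0.111 for Il13ra1 without NFATc1-deficient replicate 2, 0.0845 for Cd14 and 0.0834 for Csf1r without wild-type replicate 2, and 0.171 for Il13ra1 without wild-type replicate 1. None of 4 tested progenitor markers and neither of 2 stromal markers passed.

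Across the 121 probe sets the ratio of deficient to wild-type signal in same-number arrays had a median of 2.69 for replicate 1 and 2.71 for replicate 2. The thresholds held every such ratio at 2 or more, so nothing is read from the likeness of these medians. The labels do not say that same-number arrays are pairs. The ratio was larger in replicate 2 for 67 probe sets. It ran from 2.01 to 8.27 in replicate 1, where Fxyd2 was highest, and from 2.03 to 6.99 in replicate 2, where Dyrk3 was highest. The log2 ratios correlated across probe sets with r of 0.55 (n = 121 probe sets, which share arrays and were all chosen for a high ratio). Some genes leaned to 1 replicate, such as Ska1 (3.97 and 2.74) and Nup133 (4.81 and 2.73) to replicate 1, and Fhod3 (2.01 and 4.03) and Atf7ip2 (2.95 and 5.75) to replicate 2.

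**Figure D5:**
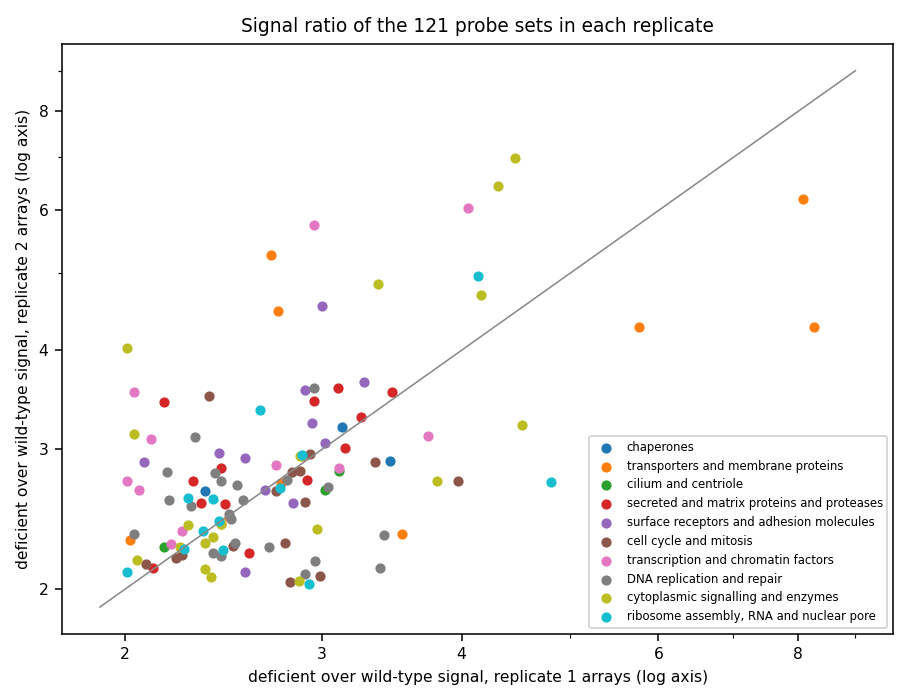
Ratio of deficient to wild-type signal in replicate 1 (horizontal) and in replicate 2 (vertical), both on log axes, for the 121 probe sets coloured by role, with the line of equal ratios. The medians are 2.69 and 2.71. No point lies below 2.01 on either axis, since the thresholds required a ratio of at least 2.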

How the data were processed

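Expression was measured on 4 arrays, 2 wild-type and 2 NFATc1-deficient. The authors deposited probe set intensity values on a linear scale made with MAS5, per the submitters' processing notes. The sources used here give neither its version nor detection calls, so whether a dim signal lay above background is unknown, and the number of arrays limits the precision. Names came from the platform's annotation table. Of 22690 probe sets, 20380 non-control ones had 1 symbol, 64 were controls and the remaining 2246 had several symbols or none.

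Signals were analysed as log2(signal + 23.3), the 25th percentile of all values, which understates the differences of dim genes. After 64 control probe sets and those at or under the 40th percentile of mean log2 signal were left out, 13578 were fitted with limma 3.58.1 in R 4.3.3 (lmFit, eBayes with an intensity trend, two-sided, Benjamini-Hochberg over all probe sets, threshold 0.05), for genotype and, with genotype as a term, for replicate number. Every adjusted p comes from the genotype fit unless replicate is named. The fit was tested on simulated data. For a list, the probe set with the highest mean log2 signal stood for a gene. The replicates are separate pools of mice of unlike sex.

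The members, the lists and the roles were chosen with earlier results of these data known. Every member could be named. The naming rule gave all signals for the 30 genes with the widest gap, the 10 brightest, those whose probe sets differed in meeting the thresholds and those at the threshold, and other members' signals were added. Up to 4 called genes per list were named by size of change, with Calcr, Itgb3, Spry2 and Ier3 named after their values were seen. Brightest refers to the mean deficient signal. Alternatives covered scaling, thresholds, pseudocount, filter, variance trend, replicate block and leaving out each array. Motifs were searched in RefSeq promoters of GRCm38.p6, and all 106 genes matched RefSeq symbols. The signals of 1 member gene are not reported here.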

Additional observations from a re-analysis of the deposited data

Results flagged for a closer look

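Probe sets without 1 gene symbol lay outside the comparison, and 8 of 2246 such probe sets met the same thresholds, against the level in the wild-type cultures. Of these 3 had no symbol and 5 had several, so none is named. The widest gap among them went from 13.4 and 6.4 in the wild-type cultures to 269.5 and 282.0 in the deficient cultures, at a probe set annotated to 4 genes, with a lowest deficient signal 20.1 times the highest wild-type signal. Both wild-type signals lay under the 25th percentile of all signals (23.3), so the size of this ratio is uncertain. The other such probe sets had ratios from 2.00 to 3.37.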

How the results depend on the processing

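The number of probe sets that met the thresholds was 523 at 1.5 times and 15 at 3 times in place of 2 times, and between 163 and 290 when single arrays were left out, all including the 121 except that 118 of them were among the 243 found without NFATc1-deficient replicate 2. Without wild-type replicate 1 there were 290. Median scaling gave 118, of which 100 were shared, quantile normalization 125, of which 111 were shared, and a minimum of 100 or 400 gave 153 and 84. The genotype fit called 1739 probe sets higher and 1546 lower, with 1157 higher without a filter and 1015 without a variance trend, and 849 to 1953 higher and 933 to 1546 lower when single arrays were left out, the lowest counts without NFATc1-deficient replicate 1. The replicate fit called 22 probe sets, 68 with median scaling, 11 without a filter and 6 without a variance trend, and no probe set of the 121 under any of these settings. It could not be run with an array left out, since no residual degrees of freedom remain. Of 108 tested genes of the 18 hand-made lists, gene families by symbol and members left out, 14 rose and 23 fell, with 7 risen without a filter, and 7 to 21 risen and 15 to 23 fallen when single arrays were left out. The share of promoters with an NFAT core was 51.2% in the 200-base window, beside 43.4% of the other genes tested. With replicate number as a block the genotype fit called 2066 probe sets higher and 1805 lower, and comparing same-number arrays gave 175 probe sets past the thresholds. The labels give the replicates only a number and a pool size, and the replicate differences of the genotypes correlated across probe sets with r of 0.132. The block lost the call of no list gene named, and for Spry2 and Ier3 its calls are not reported here.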

Other observations

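A further 280 probe sets with 1 symbol reached the fold threshold but had a mean deficient signal under 200. The 106 genes lay on 20 chromosomes of the RefSeq annotation, with 11 on chromosome 9 and 10 each on chromosomes 4 and 8. Among protein-coding genes in map order 1 pair of them was adjacent, Atf7ip2 and Emp2. Their ratios of means were 3.82 for Atf7ip2 and 2.74 for the brightest Emp2 probe set.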
